A study of Homo sapiens with 6 samples.

Results

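Homologous recombination, the Fanconi anaemia pathway and the checkpoint kinases that signal to them were followed through 33 genes: BRCA1, BRCA2, BARD1, PALB2, BRIP1, RAD51C, RAD51D, RAD54L, RAD54B, XRCC2, XRCC3, BLM, EXO1, RBBP8, NBN, RAD50, FANCA, FANCB, FANCC, FANCD2, FANCE, FANCF, FANCG, FANCI, FANCL, FANCM, ATM, ATR, ATRIP, CHEK1, CHEK2, TOPBP1 and CLSPN. They were chosen by symbol from knowledge of the pathways, and all 33 were among the 28278 symbols of the count tables. RNA came from HCT116, an established human line of a poorly differentiated colon carcinoma, in 2 groups of 3 libraries. The shControl cells, labelled WT, carried a scrambled short hairpin RNA (shRNA), and the shTRIM21 cells, labelled as a TRIM21 knockdown, carried an shRNA against TRIM21, a ubiquitin ligase that binds antibodies in the cytosol. Both shRNAs came by lentivirus and both groups were kept in puromycin (5 µg/ml, begun 36 h after infection, for 2 to 3 weeks) and are labelled day 21. How many hairpin sequences or clones were used is not given in the sources used here, and no DNA-damaging agent is named. The labels call the libraries biological replicates without saying that the cultures were separate, so p-values reflect only how far these samples spread, and that spread may be technical.

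Homologous recombination copies an intact sister chromatid to mend a broken one, so it works in S and G2 phase. The MRN complex finds the break, nucleases cut back one strand, and the BRCA proteins help the single strand pair with the sister. The Fanconi pathway unhooks crosslinks between the DNA strands: a core complex attaches ubiquitin to the FANCD2-FANCI pair, which then recruits nucleases and recombination proteins. The kinase ATM is woken by breaks and ATR by single-stranded DNA, and they pass the signal to CHEK2 and CHEK1, which hold the cell cycle.

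Library totals ran from 22656160 to 27123657 counts, and these 33 genes took 0.217% to 0.262% of them. TRIM21 itself held 288, 286 and 443 counts in shControl and 225, 182 and 173 in shTRIM21, a log2 fold change of -0.73 (SE 0.17, adjusted p = 0.0124 by edgeR), a call lost without shTRIM21 replicate 3 (-0.62, adjusted p = 0.0734) or when both replicates 3 were left out (-0.45, 0.114). Of 12 markers of colon epithelium, KRT18 averaged 74.6 and EPCAM 18.8 CPM (read counts scaled to library size), while CDX1 was at 0 in all libraries and KRT20 at 0.193 CPM. The markers of fibroblasts, endothelium and leukocytes, 18 genes in all, had no member with enough counts to be tested. Ribosomal RNA genes took 6.69% to 15.2% of the counts, least in replicate 3 of each group.

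The recombination, Fanconi and checkpoint genes were all expressed and differed little between the groups. All 33 passed the filter on low counts, with shControl means from 12.5 CPM (ATRIP) to 297 CPM (NBN). TOPBP1, the scaffold that activates ATR, fell in the shTRIM21 cells, and 0 genes rose and 32 did not pass the quasi-likelihood test of edgeR, with p-values adjusted by the Benjamini-Hochberg method over 14002 genes. In a bulk sample, fewer cells holding a transcript and less of it per cell cannot be told apart. By the same test 9.08% of all tested genes changed, 4.66% downward and 4.43% upward, so 1 of 33, or 3.03%, lay below the background. An unadjusted p under 0.05 was found for 5 members, all lower (TOPBP1, FANCD2, ATR, BRIP1 and NBN), against 11.3% of all tested genes in that direction, and for 0 members in the higher direction, against 11.5%.

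The size of the differences was small throughout. Log2 fold changes ran from -0.23 to 0.13, and no member moved by more than 1.25-fold either way, as was also the case for 77.7% of all tested genes and for 89.9% of the 8429 genes in the same range of mean CPM. The 95% interval of every one of the 33 fold changes lay inside a 1.5-fold change either way, against 91.7% in that range of CPM. The half-width of those intervals went from 0.13 to 0.35 on the log2 scale. A fold change smaller than its own half-width could not be told from 0 even before adjustment. The adjusted threshold asked for more: the intervals of FANCD2, ATR, BRIP1 and NBN excluded 0, and these genes were not called. In that CPM range 12.0% of genes changed by the test.

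**Figure D1:**
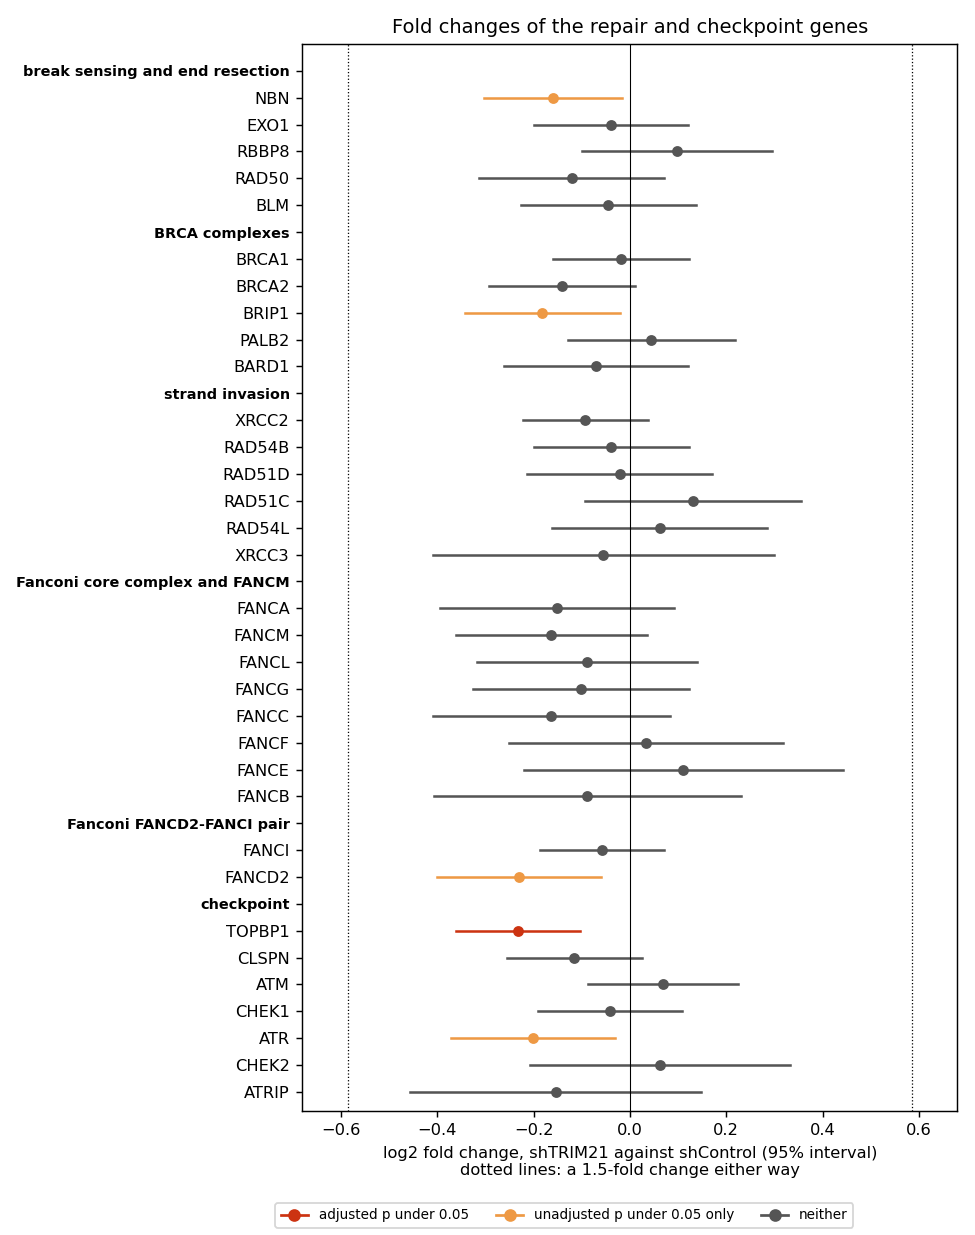
Log2 fold change (x axis) of each of the 33 genes, shTRIM21 against shControl, grouped by role; points are the fitted values and bars their 95% intervals from 3 libraries per group. The dotted lines mark a 1.5-fold change, which no interval reaches, and TOPBP1 at -0.23 is the one gene with an adjusted p under 0.05.

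More members had a lower than a higher value in the shTRIM21 cells. The fold change was negative for 25 of the 33 (75.8%, against 48.2% of all tested genes), and the median over the 33 was -0.07, against 0.01. In 7 members (BRCA2, BRIP1, XRCC2, NBN, FANCD2, TOPBP1 and ATRIP) all shTRIM21 values lay under all shControl values, where 13.9% of tested genes did so, and in 0 did all lie above, where 14.1% did (28.1% in either direction). Summed over the 33 genes, CPM was 2423, 2415 and 2529 in shControl and 2197, 2371 and 2369 in shTRIM21. The sums did not overlap between the groups. Nor did those of the other pathway genes counted below (3825 to 3919 CPM in shControl, 3517 to 3726 in shTRIM21). The same held for the end-joining genes, the G2 and mitosis genes and the tested colon epithelium markers. For the S phase genes the sums overlapped. In the sums of the 33 genes abundant members weigh most, such as NBN (mean 297 against 266 CPM) and TOPBP1 (229 against 195). These sums therefore do not show a shift shared by all. ShTRIM21 replicate 1 held the lowest of the 6 values for 19 of the 33 genes. Without it 21 were negative (median -0.03), beside 6997 of 14279 tested genes. Without shControl replicate 3 the number was 22 (median -0.02), beside 6904 of 14271. When library offsets for transcript GC content and length were added, 20 were negative (median -0.02), beside 7257 of 14002 (median -0.008). The members had longer transcripts than the 13454 annotated tested genes (median 4592 against 3205.5 bases) and less GC (42.4% against 48.5%).

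**Figure D2:**
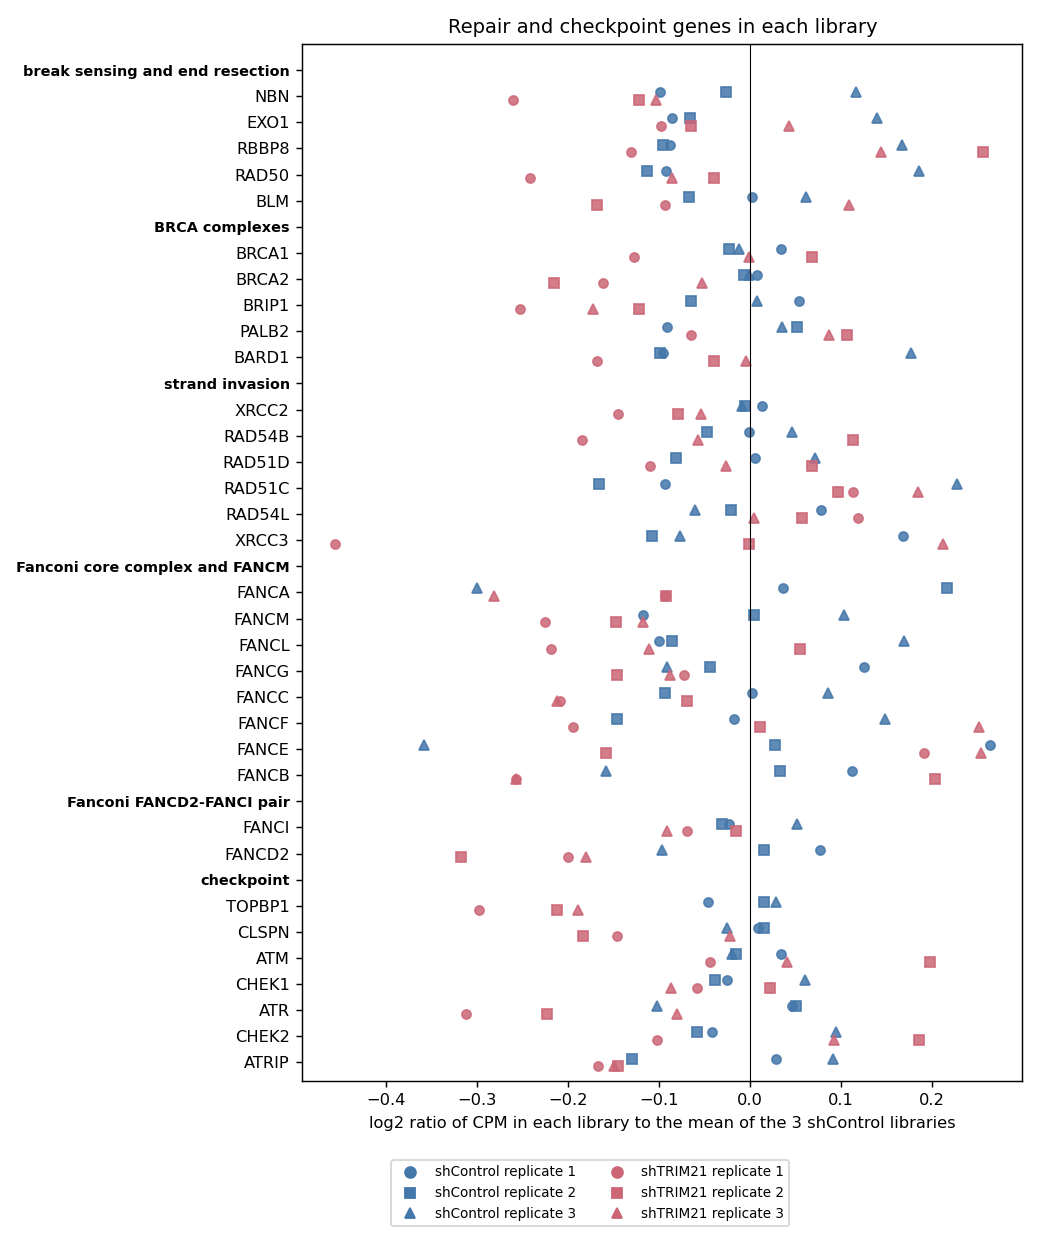
Each of the 33 genes in each library, as the log2 ratio of its CPM to the mean of the 3 shControl libraries (x axis), with shControl in blue and shTRIM21 in red and a symbol for each replicate number. Most red points lie left of 0, those of shTRIM21 replicate 1 (red circles) most often, and the colours separate fully in 7 genes.

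The checkpoint genes held the 1 call. TOPBP1 (ENSG00000163781; GRCh38 chromosome 3, 133598175 to 133662380, minus strand) stood at 221, 231 and 233 CPM in shControl and at 186, 197 and 200 in shTRIM21, from 4390 to 6549 reads counted per library. The highest shTRIM21 library was below the lowest shControl library, by a gap wider than the spread within either group. The log2 fold change was -0.23 (SE 0.06, 95% interval -0.36 to -0.10, adjusted p = 0.0233 by edgeR). It was called in 10 of 15 other analyses, and each of 5 libraries, when left out, ended the call: shControl replicate 1 (adjusted p = 0.0543) or 2 (0.0784) and shTRIM21 replicate 1 (0.0891), 2 (0.0764) or 3 (0.0668). Across those 15 the fold change stayed between -0.26 and -0.17. With any 1 of those 5 libraries left out, 602 to 801 of all tested genes were called, against 1272 with none left out.

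ATR (ENSG00000175054; chromosome 3, 142449235 to 142578826, minus strand), the kinase that TOPBP1 activates, had 77.2, 77.5 and 69.7 CPM in shControl and 60.2, 64.1 and 70.7 in shTRIM21. ShTRIM21 replicate 3 lay above shControl replicate 3, so the groups overlapped. The log2 fold change of -0.20 (SE 0.08, unadjusted p = 0.0225, adjusted p = 0.137 by edgeR) did not pass. It did pass without shControl replicate 3 (-0.24, adjusted p = 0.0425) and with both replicates 3 left out (-0.31, 0.0166), and with the GC and length offset it was -0.11 (0.304). ATRIP, the partner that brings ATR to single-stranded DNA, had the lowest level of the 33, at 12.7, 11.4 and 13.3 CPM against 11.1, 11.3 and 11.2. Its log2 fold change was -0.15 with a 95% interval from -0.46 to 0.15.

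The kinases downstream and on the ATM branch showed no difference that passed. CLSPN, the claspin adaptor between ATR and CHEK1, had 126, 127 and 123 CPM in shControl and 113, 110 and 124 in shTRIM21 (log2 fold change -0.12, 95% interval -0.26 to 0.03). CHEK1, the kinase that claspin presents to ATR, averaged 81.9 ± 3.07 and 79.7 ± 3.15 CPM (SD, n = 3 per group), with overlapping libraries. ATM (ENSG00000149311; chromosome 11, 108222484 to 108369102, plus strand) had 92.2, 89.1 and 88.8 CPM against 87.3, 103 and 92.6, overlapping groups and a log2 fold change of 0.07 (95% interval -0.09 to 0.22). With the GC and length offset ATM rose by 0.18 (adjusted p = 0.0329 by edgeR), its only call among 15 other analyses. CHEK2, which ATM activates, averaged 17.1 ± 1.01 and 17.9 ± 1.79 CPM (SD, n = 3 per group).

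Among the genes that sense breaks and cut back their ends, NBN, the MRN subunit that brings in ATM, was the most abundant member. Its libraries held 277, 292 and 322 CPM in shControl and 248, 273 and 276 in shTRIM21, so the groups stood apart only narrowly. The log2 fold change was -0.16 (SE 0.07, unadjusted p = 0.0306, adjusted p = 0.166 by edgeR) and became -0.09 both without shControl replicate 3 and with the GC and length offset. RAD50, the MRN subunit that tethers the ends, had 57.5, 56.7 and 69.7 CPM against 51.8, 59.6 and 57.8. RBBP8 (CtIP), which starts resection with MRN, went the other way, at 82.7, 82.3 and 98.8 CPM against 80.3, 105 and 97.2, a log2 fold change of 0.10 with a 95% interval from -0.10 to 0.29. The long-range resection nuclease EXO1 and the helicase BLM had log2 fold changes of -0.04 and -0.05, and in all of these genes but NBN the groups overlapped.

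None of the 5 genes of the BRCA complexes passed. BRCA1 (ENSG00000012048; chromosome 17, 43044295 to 43170245, minus strand), the ubiquitin ligase that promotes resection, held 137, 132 and 133 CPM in shControl and 123, 141 and 134 in shTRIM21. Both the lowest and the highest of those values were in shTRIM21. The log2 fold change was -0.02 (SE 0.07, adjusted p = 0.911 by edgeR), with a 95% interval from -0.16 to 0.12. Its partner BARD1 had -0.07 and PALB2, the bridge from BRCA1 to BRCA2, 0.04, each with overlapping groups.

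BRCA2 (ENSG00000139618; chromosome 13, 32315474 to 32400266, plus strand), which acts on the resected strand, was at 85, 84.2 and 84.5 CPM in shControl and 75.6, 72.8 and 81.5 in shTRIM21. The controls were the tightest of any member, with a coefficient of variation of 0.497%, and all shTRIM21 values lay under them. The log2 fold change of -0.14 (95% interval -0.29 to 0.01, adjusted p = 0.254 by edgeR) did not pass, and with the GC and length offset it was -0.02 (0.899). BRIP1, the FANCJ helicase that binds BRCA1, was at 70.2, 64.7 and 68 CPM against 56.8, 62.2 and 60.0, also without overlap. Its log2 fold change was -0.18 (SE 0.08, unadjusted p = 0.0291, adjusted p = 0.161 by edgeR), and it was -0.10 with the GC and length offset.

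The genes that act at strand invasion, RAD51C, RAD51D, XRCC2 and XRCC3 and the motor proteins RAD54L and RAD54B, gave 0 calls among 6. RAD51C was at 30.8, 29.3 and 38.5 CPM in shControl and 35.5, 35.1 and 37.4 in shTRIM21. ShControl replicate 3 exceeded all shTRIM21 libraries, while the other controls lay below them, and the log2 fold change was 0.13 (95% interval -0.09 to 0.35). It was 0.05 without shControl replicate 2, 0.09 without shControl replicate 1 and 0.27 without shControl replicate 3 (adjusted p = 0.0767 by edgeR). XRCC2 held 156, 154 and 154 CPM against 140, 146 and 149, so the groups did not overlap, with a log2 fold change of -0.09 (95% interval -0.22 to 0.04). RAD51D, XRCC3, RAD54L and RAD54B had log2 fold changes from -0.06 to 0.06. XRCC3 was the least precise member, with libraries from 9.34 to 14.8 CPM in shTRIM21 and a 95% interval from -0.41 to 0.30.

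In the Fanconi pathway neither gene of the FANCD2-FANCI pair passed. FANCD2 (ENSG00000144554; chromosome 3, 10026414 to 10101930, plus strand), the subunit whose ubiquitin mark defines pathway activity, was at 66.3, 63.5 and 58.8 CPM in shControl and 54.7, 50.5 and 55.5 in shTRIM21. All shTRIM21 values were under the controls, and the log2 fold change of -0.23 (SE 0.08, unadjusted p = 0.0106, adjusted p = 0.0863 by edgeR) was close to that of TOPBP1 but missed the threshold. It passed without shControl replicate 3 (-0.27, adjusted p = 0.0291) and with both replicates 3 left out (-0.29, 0.0349), and was -0.18 (0.113) with the GC and length offset. FANCI, its partner in the clamp, was at 188, 187 and 198 CPM against 182, 189 and 179, a log2 fold change of -0.06 (95% interval -0.19 to 0.07). The difference between FANCD2 and FANCI was not tested.

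The 7 core complex genes followed here and FANCM, the helicase that anchors the complex on DNA, gave 0 calls, with log2 fold changes from -0.16 to 0.11. FANCL, the subunit with the ubiquitin ligase activity, averaged 32.0 ± 3.46 CPM in shControl and 30.2 ± 2.91 in shTRIM21 (SD, n = 3 per group). FANCM averaged 37.7 ± 2.88 and 33.7 ± 1.30 CPM, and FANCC 21.4 ± 1.32 and 19.2 ± 1.10 CPM, both with a log2 fold change of -0.16 and overlapping groups. With the GC and length offset FANCM was at -0.07 and FANCC at -0.16, and with both replicates 3 left out FANCC was at -0.08. FANCA ranged from 31.2 to 44.6 CPM within shControl alone, a spread that covered all of its shTRIM21 values (31.6 to 36.0). FANCB, FANCE, FANCF and FANCG also overlapped between the groups. FANCE had the widest spread of any member among the controls, a coefficient of variation of 21.1%.

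Levels can be compared between genes only per length, here as CPM per kilobase of the principal GENCODE transcript. The order depends on that choice of length. RAD51D, at 38.9 CPM in shControl, was divided by 9988 bases and ranked 32, and FANCC by 4592 although its exons hold 12809 bases. Members that share reads with neighbours, described below, are less certain on this scale too. On that scale the 33 genes spanned from 63.6 for NBN to 2.72 for ATRIP in shControl. NBN, XRCC2 (50.4) and FANCI (40.2) each lay above the next gene by more than the spread of the 3 control libraries, whereas TOPBP1 (37.1) and RAD54B (35.3) did not separate. BRCA1 stood at 18.4 and BRCA2 at 7.05, and neither RAD50, BRCA2, FANCA, ATM, CHEK2, FANCF nor FANCE, from 7.38 down to 6.42, separated from its neighbour in that order. FANCD2 (12.0) was at 10.3 in shTRIM21, and FANCI at 38.6.

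**Figure D3:**
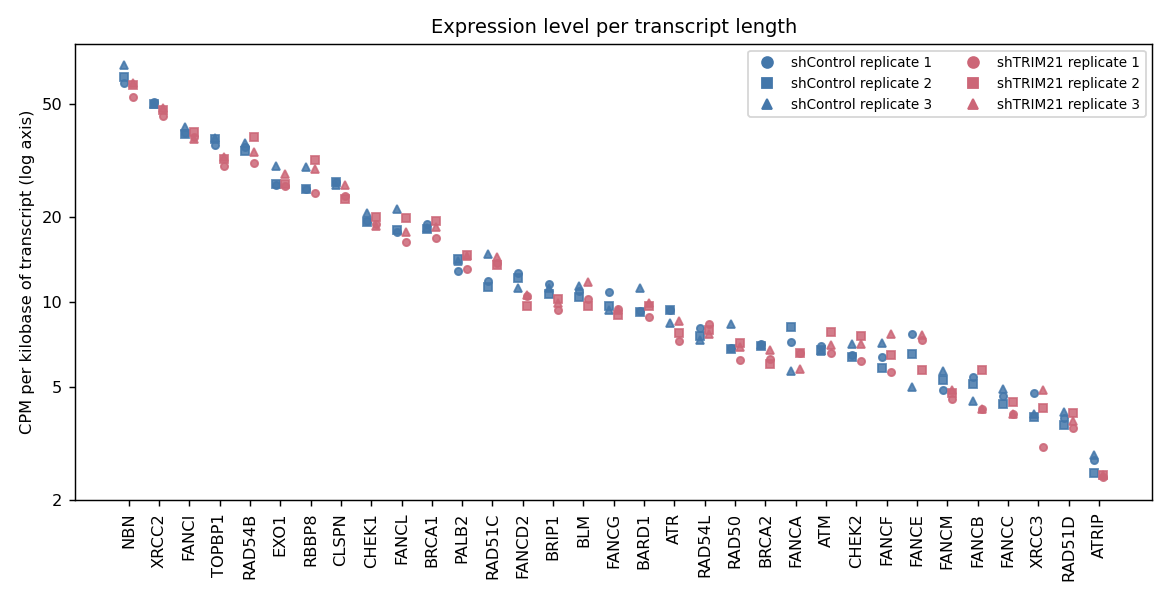
CPM per kilobase of transcript (log y axis) for the 33 genes ordered by their shControl mean, one point per library, blue for shControl and red for shTRIM21. The genes span from 63.6 (NBN) to 2.72 (ATRIP), and many neighbours in the order overlap, such as TOPBP1 and RAD54B.

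Some of these values share reads with neighbours, and the counting's strand setting is not given in the sources used here. MALAT1 and its antisense partner TALAM1 carried nearly equal counts (50395 and 48505 in shControl replicate 1), so opposite strands could not be told apart. In GENCODE 21 of the 33 genes overlap exons of another gene, and in 5 of them 1 other gene covers over 25% of the exon bases. FSBP covers 59.1% of the exon bases of RAD54B on the same strand and held 1349 counts beside 2644 for RAD54B in shControl replicate 1. KLC1 covers 76.7% of XRCC3 on the opposite strand, AC116366.3 79.7% and TREX1 27.9% of RAD50 and ATRIP on the same strand, and LRRC41 25.1% of RAD54L on the opposite strand. For TOPBP1 the overlap was 0.49%. In shControl replicate 1 KLC1 held 1371 counts beside 352 for XRCC3, and LRRC41 577 beside 617 for RAD54L. TREX1 held only 33 beside 311 for ATRIP. The values of the 5 genes with over 25% covered are uncertain because of shared reads. Under the 25% line, genes on the opposite strand cover 23.6% of FANCA (ZNF276), 18.7% of FANCL (VRK2) and 16.4% of ATR (AC109992.1). Shared reads could affect those values too.

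The promoters of the members were searched for E2F-type motifs, because many S-phase genes carry them. The window ran from 250 bases before to 50 bases after each annotated start (RefSeq, GRCh38.p14), and 30 of the 33 genes had one. The motif was any of TTTCCCGC, TTTCGCGC, TTTGCCGC and TTTGGCGC on either strand. It occurred in the windows of 7 of the 30 genes (23.3%), against 6.69% of the 10513 tested genes with a window and 3.31% of all windows. They were CLSPN, EXO1, FANCA, FANCC, FANCD2, TOPBP1 and XRCC2. A match is a description of the sequence and not a binding site.

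The TOPBP1 window is printed whole since it belongs to the 1 gene that fell. It covers chr3:133661892-133662191 on the minus strand, with the motif in capitals (its reverse complement reads TTTCGCGC), starting 7 bases before the annotated start.
TOPBP1: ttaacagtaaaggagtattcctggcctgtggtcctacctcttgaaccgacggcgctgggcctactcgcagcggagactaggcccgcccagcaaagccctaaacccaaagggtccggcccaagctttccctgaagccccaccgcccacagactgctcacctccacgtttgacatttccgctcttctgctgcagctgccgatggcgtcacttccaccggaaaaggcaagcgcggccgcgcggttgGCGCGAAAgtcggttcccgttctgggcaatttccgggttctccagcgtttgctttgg

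The other matches are shown with 18 bases either side, the motif in capitals, 5′ to 3′ along the gene, to let the sites be compared across members whose fold changes ran from -0.23 to -0.04. FANCD2 has its match 2 bases and CLSPN 5 bases before the start, EXO1 and XRCC2 just after it, and FANCA 172 bases before it. FANCC has 2 matches, of which the one nearer the start is shown. The stretches lie at chr3:10026417-10026460 (FANCD2, plus strand), chr1:35769958-35770001 (CLSPN, minus strand), chr1:241848190-241848233 (EXO1, plus strand), chr7:152676095-152676138 (XRCC2, minus strand), chr16:89816794-89816837 (FANCA, minus strand) and chr9:95317730-95317773 (FANCC, minus strand), in GRCh38.p14.
FANCD2: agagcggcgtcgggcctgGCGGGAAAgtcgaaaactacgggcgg
CLSPN: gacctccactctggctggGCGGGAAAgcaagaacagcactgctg
EXO1: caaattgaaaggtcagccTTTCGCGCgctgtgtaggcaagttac
XRCC2: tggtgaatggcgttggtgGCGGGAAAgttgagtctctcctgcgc
FANCA: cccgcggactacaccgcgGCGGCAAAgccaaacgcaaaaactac
FANCC: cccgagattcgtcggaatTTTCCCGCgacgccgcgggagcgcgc
The median log2 fold change was -0.15 over the 7 genes with a match and -0.05 over the 23 without, and the 703 tested genes with a match had a median of -0.01, of which 9.67% changed. The CCAAT box (CCAAT) occurred in 14 of the 30 genes (46.7%, against 43.2% of tested genes) and the cell cycle homology element (TTTGAA or TTCGAA) in 3 (10%, against 15.8%), both strands searched. The median log2 fold change was -0.04 with and -0.09 without a CCAAT box, and -0.16 with and -0.07 without the cell cycle homology element.

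The 3′ UTRs were searched for 2 sequences of 7 bases that an earlier scan of these same fold changes had picked out, AGTGGAA going with lower and GTGTCAC with higher values, so that neither is independent evidence here. AGTGGAA occurred in the longest annotated 3′ UTR of 5 of the 33 genes (15.2%, against 18.6% of 12043 tested genes and 42.8% of those that fell): TOPBP1, BRCA1, ATM, CHEK2 and FANCB. The 3′ UTRs of the genes that fell were longer, with a median of 2929 bases against 1631 for all tested genes and 1769 for the members. TOPBP1, the member that fell, holds it at base 308 of 979. Sites of TOPBP1 and of BRCA1 and ATM, which did not pass, are shown with the 7 bases in capitals.
TOPBP1: agctgtagcttAGTGGAAattttagcaag
BRCA1: aaagaaccaggAGTGGAAaggtcatcccc
ATM: acataggtagaAGTGGAAcatttctctgt
GTGTCAC occurred in FANCF, RAD50 and CHEK2 (9.09%, against 10.9% of tested genes). FANCD2, ATR, BRIP1 and NBN, with unadjusted p under 0.05, held neither.

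The rest of the pathway was followed through a list of 75 symbols chosen by function, 5 genes among them under an older and a current name, of which 67 were tested. Of these 2 rose, 6 fell and 59 did not pass by edgeR's test, 11.9% changed against 9.08% of all tested genes, and the median log2 fold change was -0.01. Adjusted p-values of the 8 went from 0.000423 to 0.0364. SHLD2, a subunit of shieldin, which protects broken ends from resection, had the lowest fold change of the 6 that fell, at 113.6 ± 7.16 CPM in shControl and 81.4 ± 5.75 in shTRIM21 (SD, n = 3 each; log2 fold change -0.48, SE 0.08). RIF1, which acts with shieldin downstream of 53BP1, fell from 418 ± 14 to 339 ± 22.9 CPM (-0.30, SE 0.06), while TP53BP1 itself went from 149 to 139 CPM and did not pass (-0.10, 95% interval -0.25 to 0.06). RAD51AP1, which promotes invasion of the sister duplex, fell from 59.2 ± 1.26 to 46.3 ± 0.622 CPM (-0.35, SE 0.08). SHLD2, RIF1 and RAD51AP1 kept their call in all 15 other analyses, although RIF1 was at -0.18 with the GC and length offset.

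ETAA1, like TOPBP1 an activator of ATR, went down from 42.4 ± 1.68 CPM to 32.8 ± 2.03 (SD, n = 3 each; log2 fold change -0.37, SE 0.09), a call lost without shControl replicate 2, without shTRIM21 replicate 2 or 3, and without replicate 3 of both groups (adjusted p up to 0.0893 by edgeR). REV3L, the catalytic subunit of the polymerase that bypasses lesions at unhooked crosslinks, fell by 0.32 (SE 0.08) on the log2 scale, a call lost without shControl replicate 1 or 2 or shTRIM21 replicate 1. The recombination helicase MCM8 fell by 0.28 (SE 0.07), a call lost without shControl replicate 2 or shTRIM21 replicate 1 or 3. The crosslink nuclease subunit ERCC1 rose by 0.26 (SE 0.07), lost without shControl replicate 1 or shTRIM21 replicate 1 or 3. WEE1, the kinase that holds CDK1 inactive, rose by 0.26 (SE 0.08), lost without shControl replicate 1 or 2, shTRIM21 replicate 2 or 3, or replicate 3 of both groups. MRE11, the nuclease of the MRN complex, did not pass, with a log2 fold change of -0.11 (95% interval -0.29 to 0.08).

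**Figure D4:**
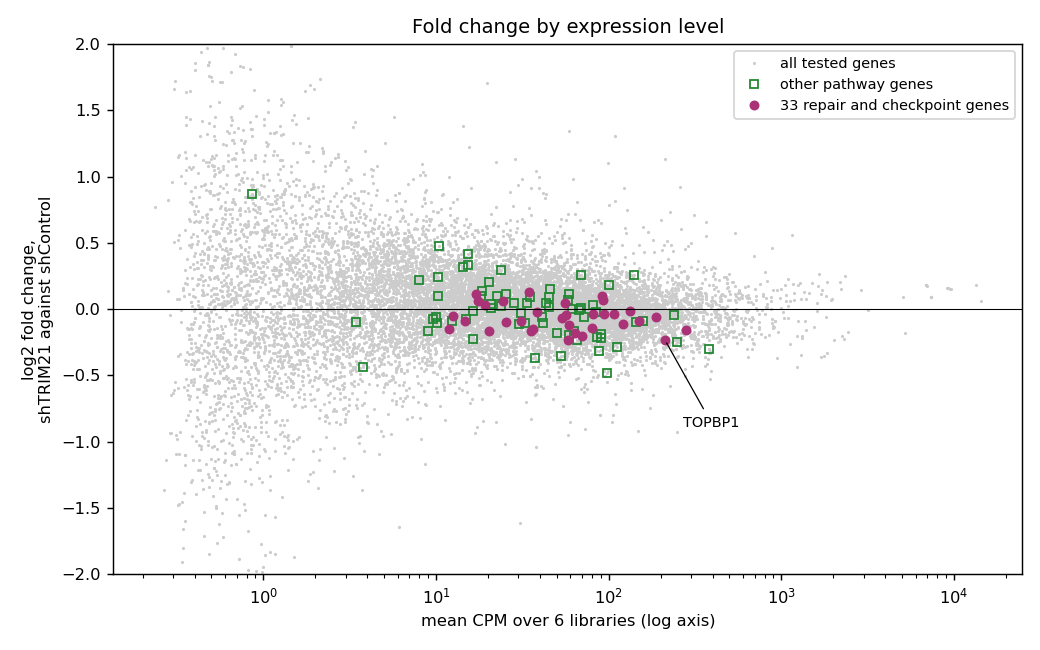
Log2 fold change, shTRIM21 against shControl (y axis), by mean CPM over the 6 libraries (log x axis), for all 14002 tested genes (grey, of which 36 lie outside the plotted range), 67 other pathway genes (green squares) and the 33 members (purple). The members all lie between -0.23 and 0.13, and TOPBP1 is marked.

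Genes of neighbouring processes were counted for comparison. Of 25 G2 and mitosis genes 13 fell and 0 rose (52% changed, against 9.08% of all tested genes), and the fold changes of all 25 were negative (median -0.22). MKI67, the proliferation marker, had a log2 fold change of -0.44 (SE 0.07) and CENPF, a kinetochore protein, one of -0.22 (SE 0.06), the latter a call lost without any one library other than shControl replicate 3 and a value of -0.13 with the GC and length offset. Among 25 S phase genes the median was 0.04, and the most abundant, RRM2 (-0.09), MCM4 (-0.01) and PCNA (0.11), did not pass. Of the 25, 4 rose and 1 fell (20% changed), named here after their values were seen. MCM6 (0.57) and CCNE1 (0.44) rose in all 15 other analyses too. MCM5 (0.45) and UHRF1 (-0.21) kept their call in 11 and 10 of the 15, and E2F1 (0.45) in 7. Of 11 end-joining genes 1 rose (9.09%, against 9.08% of all tested genes). It was the polymerase POLL, also named after its value was seen (0.67, SE 0.20, from 5.92 to 9.38 CPM). The POLL call was lost without any one library except shControl replicate 2. PRKDC, XRCC5 and XRCC6, the most abundant, did not pass (-0.13, -0.16 and 0.03). With the GC and length offset PRKDC was at -0.04, and XRCC5 passed (-0.14, adjusted p = 0.0135 by edgeR). PRKDC and XRCC5 each passed in 2 of the 15 other analyses, over which PRKDC ran from -0.19 to -0.04 and XRCC5 from -0.20 to -0.11. The median of the members, -0.07, lay between those of the S phase genes and the G2 and mitosis genes. So did the medians of all tested genes (0.01), the other pathway genes (-0.01) and the end-joining genes (-0.09). The part of cell cycle phase in the median of the members was not tested.

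**Figure D5:**
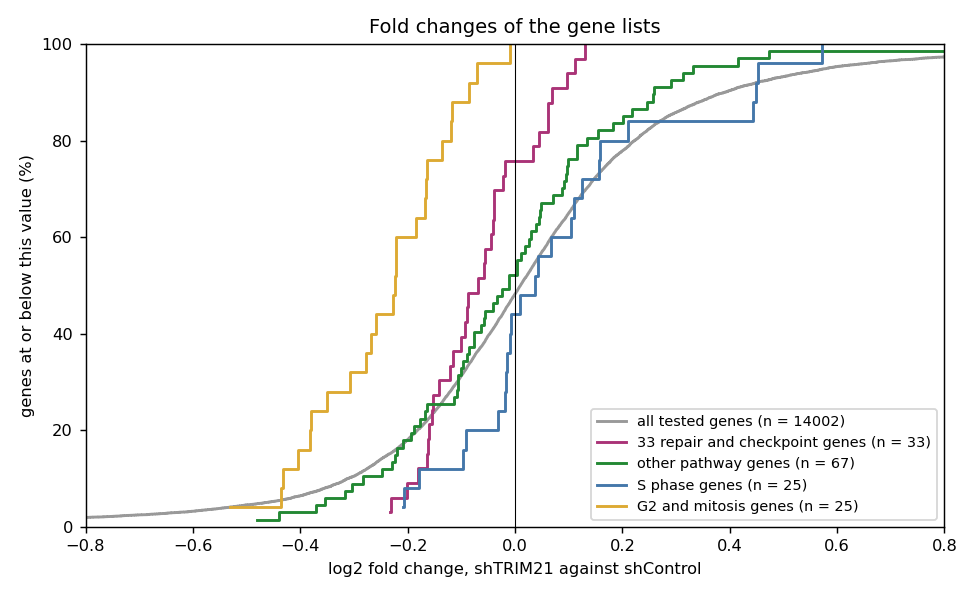
Share of genes (y axis, %) at or below each log2 fold change, shTRIM21 against shControl (x axis), for all 14002 tested genes (grey), the 33 members (purple), 67 other pathway genes (green), 25 S phase genes (blue) and 25 G2 and mitosis genes (yellow). The members cross 0 at 75.8% of genes and the G2 and mitosis genes lie wholly below 0.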

How the data were processed

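RNA-seq was compared between 3 shControl and 3 shTRIM21 libraries. The values deposited by the authors are counts, whole numbers of reads per gene symbol with no normalization. TopHat2 2.1.1, edgeR 3.38.1, limma 3.52.2 and the hg38 build are named in the submitters' processing notes. No source used here gives the counting tool, its annotation or its strand setting.

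The deposited counts were tested with edgeR 4.0.16 in R 4.3.3: its default filter on low counts left 14002 genes, library sizes were scaled by TMM, and the quasi-likelihood test compared the groups with no other term, with Benjamini-Hochberg adjustment over all tested genes and a threshold of 0.05. The SE is the fold change divided by the square root of F, and 95% intervals use the test's degrees of freedom. CPM is relative to the TMM-scaled library size. Positions and lengths come from GENCODE release 29 (GRCh38, the assembly also called hg38), which matched all 33 members.

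Alternatives were other scalings (RLE, upper quartile), no filter, DESeq2 1.42.0, limma-voom (limma 3.58.1), removal of ribosomal RNA genes, a replicate block, replicate 3 of both groups left out, each library left out, and an offset for GC content and length. All members, TRIM21 and the other pathway genes that passed were to be named, and of each context list at most 3 of its most abundant genes. The members, lists and alternatives were chosen with earlier results of these data known. Counts per member were from 238 to 9043 per library; the intervals reflect this depth and the spread between replicates. The values of 1 gene of the wider pathway list are not reported here.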

Additional observations from a re-analysis of the deposited data

How the results depend on the processing

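The number of members changed, 1 in the analysis reported, was 0 to 3 with single libraries left out, 3 without replicate 3 of both groups and 2 with the GC and length offset, and the number of all genes changed, 1272, was 602 to 1737 with single libraries left out, 1903 with that offset, 1609 without the filter and 1699 with the replicate block. Of the other pathway genes 8 changed, and 4 to 11 did with single libraries left out. TRIM21 ranged from -0.82 to -0.56 with single libraries left out and was -0.45 without replicate 3 of both groups. Of the 33 members 20 kept their sign and 29 their side of the threshold in all 15 alternatives. Of the 13 that changed sign, none was called in the analysis reported. With both replicates 3 left out the sign turned for BARD1 (0.0031), RAD51D (0.027), RAD54B (0.0032), EXO1 (0.0029), FANCE (-0.11), FANCF (-0.00057), FANCL (0.024) and CHEK1 (0.022), and with the offset for BRCA1 (0.054), BARD1 (0.0095), RAD51D (0.038), BLM (0.016) and CHEK1 (0.0049). With single libraries left out the range was -0.062 to 0.034 for BRCA1, -0.12 to 0.035 for BARD1, -0.067 to 0.022 for RAD51D, -0.12 to 0.030 for RAD54B, -0.21 to 0.11 for XRCC3, -0.13 to 0.012 for BLM, -0.081 to 0.043 for EXO1, -0.034 to 0.26 for FANCE, -0.090 to 0.14 for FANCF, -0.16 to 0.011 for FANCL, -0.00030 to 0.12 for ATM and -0.0016 to 0.14 for CHEK2. The replicate block changed the call of 0 members (1 called, as without it). Deviations from the group mean correlated at 0.096, -0.0123 and 0.0907 between libraries of the same number. Between libraries of different numbers they ran from -0.121 (shControl replicate 3 with shTRIM21 replicate 1) to 0.048 (shControl replicate 2 with shTRIM21 replicate 1). The labels do not call the numbers pairs, and the analysis reported did not treat them so. Whether they mark a batch was not tested, nor was the cause of the dependence on processing.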
